A study of Neurospora crassa with 6 samples.

Results

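Chitin synthases are membrane enzymes that build chitin, a polymer of N-acetylglucosamine, from UDP-N-acetylglucosamine at the growing hyphal tip and at septa. Filamentous fungi carry several of them, sorted into classes by sequence, and classes V and VII join a myosin motor-like domain to the synthase. The chitin synthase genes described here were the 5 rows of the deposited count table, among 9757 genes, whose identifier begins with chs- and a number. They were chs-1 (class III), chs-3 (class I), chs-4 (class IV), chs-5 (class V) and chs-6 (class VI), with classes given from general knowledge, since the table holds none. Loci that the table does not name as chs were not counted as members.

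Transcript levels were measured by RNA sequencing of mycelium of Neurospora crassa, a filamentous ascomycete, after overnight growth in Vogel's minimal medium with 1.5% sucrose. The strains were a cac-1 suz-12 double knockout and a cac-1 knockout, with 3 libraries each. Both lack cac-1, a subunit of the histone chaperone chromatin assembly factor 1, and the double knockout is labelled as also lacking suz-12, a subunit of the Polycomb complex that methylates histone H3 in facultative heterochromatin. The comparison therefore asks which genes differ in transcript level between these strains, labelled as differing in suz-12, and no wild type was analysed here. The labels do not say whether replicates came from separate cultures, so p-values measure only the spread between these libraries, which may be technical.

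Library totals ran from 7989915 to 28327383 counts, the smallest being replicate 1 of the single knockout. Levels of a gene across libraries are given as CPM, counts scaled by library total and TMM factor. The gene cac-1 had 0 counts in all 6 libraries, where a count of 0 allows up to 0.351 CPM in the shallowest (3 counts) if each count is 1 fragment, or 0.703 CPM (6 counts) if 2 counts make 1 fragment, for counting error only. NCU05460, the locus taken as suz-12 from general knowledge because neither the count table nor RefSeq names it, had 2.39, 2.40 and 3.26 CPM in the double knockout and 8.67, 7.36 and 9.13 CPM in the single knockout. Reads thus remained on it in the double knockout, with 54, 70 and 55 counts and a mean of 32.0% of the single-knockout level, and their source was not tested. The mating-type gene matA-1 had 1193, 1387 and 1000 counts in the double knockout and 0 in every single-knockout library, so the strains also differed at that locus. Any effect that follows this difference cannot be told apart from that of suz-12. Of 8 conidiation markers 1 rose (con-6) and 1 fell (con-8), and of 7 sexual-tissue markers 1 rose (app) and 1 fell (poi-2), near the 28.1% of all genes tested that were called in either direction. Summed conidiation markers reached 222 to 274 CPM in the double and 251 to 445 CPM in the single knockout, and summed sexual markers 1091 to 1848 CPM in the double and 1549 to 3108 CPM in the single knockout. None of these markers was at 0 in all libraries, and their part in the results was not tested. Library names run consecutively within each strain. A further number in the column headers is consecutive in the single knockout, while in the double knockout replicate 1 stands apart from replicates 2 and 3. The labels do not say what either number stands for. Any effect that follows the library names cannot be told apart from the strain.

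No chitin synthase gene changed detectably between the strains, as tested with the quasi-likelihood method of edgeR and p-values adjusted over all genes tested. All 5 passed the filter on low counts, and 0 of 5 passed an edgeR adjusted p of 0.05. An unadjusted edgeR p under 0.05 was found for 0 of 5, against 3607 of the 9148 genes tested. DESeq2 and limma-voom also called 0. Over the whole table, 28.1% of the 9148 genes tested were called, 16.1% higher and 11.9% lower in the double knockout. That is 1476 higher and 1093 lower, and scaling by library totals, which moved the all-gene median log2 fold change to -0.20, gave 1038 higher and 1861 lower. The fitted changes of the 5 genes lay between -0.21 and 0.24 on the log2 scale, with a median of 0.16 against -0.000895 for all genes tested. Their 95% intervals together reached from 0.615-fold to 1.63-fold, so larger changes than these lay outside the interval of every member. In bulk mycelium, fewer cells of a type and less RNA per cell cannot be told apart.

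**Figure D1:**
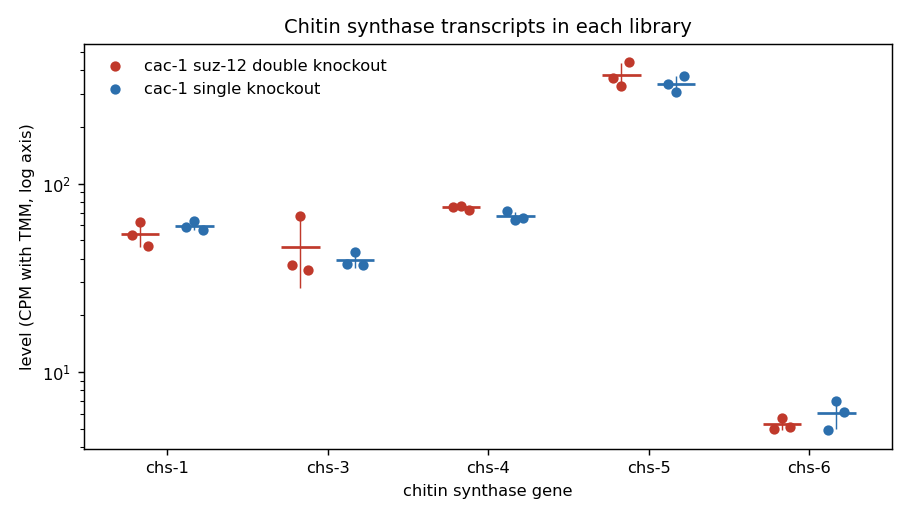
Level of each chitin synthase gene in each library, in CPM scaled by TMM factors on a log axis. Points are libraries, horizontal bars the mean and vertical bars the SD over 3 libraries per strain. The strains overlap for every gene except chs-4, whose 3 double-knockout points, at 72.9 to 76.5 CPM, stand just above the single-knockout range of 63.9 to 71.2 CPM.

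The most abundant member was chs-5 (NCU04352, linkage group IV, 3672620 to 3678388, minus strand, 3 counted intervals), the gene of the myosin-linked class V enzyme. It stood at 365, 330 and 440.2 CPM in the double knockout, against 336, 307 and 373 CPM in the single knockout. Replicate 3 was the highest library in each strain, and the ranges overlapped. The means were 378 ± 56.4 CPM in the double and 339 ± 32.7 CPM in the single knockout (SD, n = 3 each), which is 0.16 on the log2 scale (edgeR adjusted p = 0.495, SE 0.160). The 95% interval of the change ran from 0.883-fold to 1.41-fold.

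The class IV gene chs-4 (NCU09324, linkage group I, 4237335 to 4241115, minus strand, 2 counted intervals) had 75.2, 76.5 and 72.9 CPM in the double knockout. In the single knockout it had 71.2, 63.9 and 65.9 CPM. It was the only member whose strains did not overlap on this scale, which held for 42.3% of all genes tested. The difference was 0.16 on the log2 scale (edgeR adjusted p = 0.424, SE 0.140), and the interval ran from 0.911-fold to 1.37-fold. Only 0.197% of tested genes had a narrower interval, so chs-4 was among the most precisely measured genes of the table.

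The class III gene chs-1, whose product lies at the Spitzenkörper, the vesicle cluster of the hyphal tip, and at septa, maps to linkage group V (NCU03611, 1835794 to 1838679, minus strand, 3 counted intervals). Its levels were 53.3, 62.6 and 46.4 CPM in the double knockout, against 59.0, 63.5 and 56.9 CPM in the single knockout. Replicate 2 was the highest in each strain, and 2 double-knockout libraries lay below all of the single knockout. The fitted change of -0.14 (edgeR adjusted p = 0.520, SE 0.153) left an interval from 0.723-fold to 1.13-fold.

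Expression of the class I gene chs-3 (NCU04251, linkage group V, 5360354 to 5363682, minus strand, 4 counted intervals) was uneven within the double knockout. There it had 36.8, 67.3 and 34.7 CPM, while the single knockout had 37.5, 43.2 and 37.1 CPM. Replicate 2 of the double knockout thus stood above all other libraries, and the remaining double-knockout libraries stood below all of the single knockout. The coefficient of variation was 39.4% in the double knockout and 8.67% in the single knockout. The log2 fold change of 0.24 (edgeR adjusted p = 0.457, SE 0.219, interval 0.852-fold to 1.63-fold) rested on that library, and without it the sign turned, at -0.14 (edgeR adjusted p = 0.568).

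The class VI gene chs-6 (NCU05268, linkage group IV, 5526544 to 5529412, minus strand, 3 counted intervals), whose product has also been placed at the Spitzenkörper and septa, was the lowest member. Its counts were 113, 166 and 86 in the double knockout and 42, 198 and 132 counts in the single knockout, or 5.01, 5.69 and 5.10 CPM in the double and 4.92, 7.04 and 6.12 CPM in the single knockout. The lowest and the highest library both belonged to the single knockout. In its shallowest library, with 42 counts, the exact Poisson interval of 95% ran from 3.55 to 6.65 CPM if each count is 1 fragment, and from 3.05 to 7.52 CPM if 2 counts make 1 fragment, as the many even values allow. It covers counting error only and spans every double-knockout value. The log2 fold change was -0.21 (edgeR adjusted p = 0.529, SE 0.231, interval 0.615-fold to 1.21-fold).

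To compare levels between the genes, counts were divided by counted length and scaled to the same total in every library (TPM). In the double knockout chs-5 averaged 45.2 ± 4.27 TPM, followed by chs-4 with 13.7 ± 1.59, chs-1 with 13.4 ± 3.27, chs-3 with 11.8 ± 5.89 and chs-6 with 1.32 ± 0.222 TPM (SD, n = 3). In the single knockout the order was chs-5 with 48.2 ± 3.16, chs-1 with 17.5 ± 1.58, chs-4 with 14.5 ± 0.698, chs-3 with 11.6 ± 1.42 and chs-6 with 1.80 ± 0.363 TPM (SD, n = 3). The class V gene headed and the class VI gene closed the order in both strains, with library ranges clear of their neighbours. The middle genes chs-1, chs-3 and chs-4 overlapped in the double knockout, where their order cannot be told, and did not overlap in the single knockout. Among all 9757 genes, chs-5 stood between the 80.1 and 84.5 percentile of TPM across the libraries, and chs-6 between the 15.4 and 22.6 percentile. TPM carries no TMM factor, and on it the means of chs-4 and chs-5 were slightly lower in the double knockout, the opposite of their direction in CPM.

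Among the 5 genes, chs-5 provided about as much transcript per length as the other 4 together. Classes II and VII, which this fungus is also known to carry, have no gene named chs in the table, so the shares describe the 5 named genes and not the whole family. The share of chs-5 in the summed TPM was 54.1%, 45.5% and 60.5% in the double knockout and 51.5%, 48.2% and 54.9% in the single knockout. The share of chs-1 was 15.6% ± 2.35 in the double and 18.6% ± 1.59 in the single knockout, and that of chs-4 was 16.03% ± 0.865 in the double and 15.5% ± 0.942 in the single knockout (SD, n = 3 each). The share of chs-6 was 1.55% ± 0.0873 in the double and 1.91% ± 0.365 in the single knockout. The share of chs-3 reached 19.2% in replicate 2 of the double knockout, against 11.3% and 9.88% in the other double-knockout libraries and 11.3% to 14.0% in the single knockout. Summed over the 5 genes, the level was 76.9, 96.8 and 82.6 TPM in the double knockout and 92.2, 94.5 and 94.1 TPM in the single knockout, so that the highest and the lowest libraries were both of the double knockout.

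**Figure D2:**
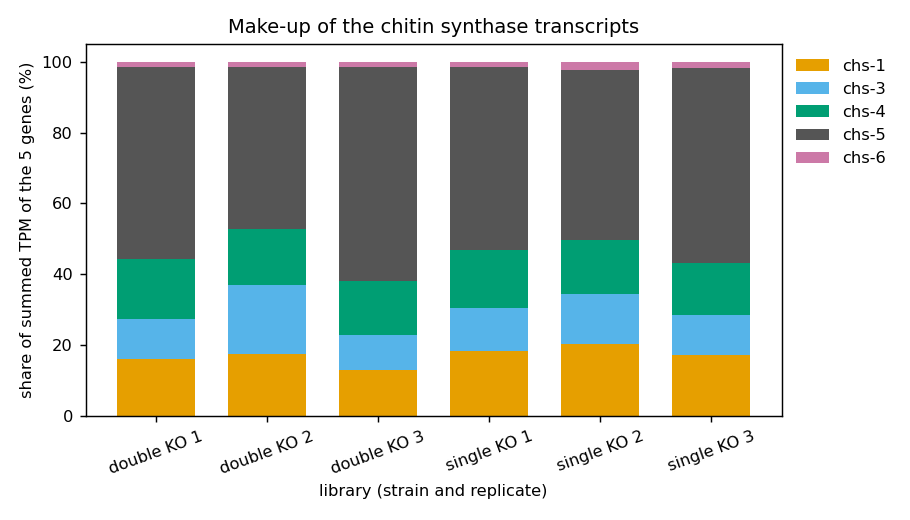
Share of each chitin synthase gene in the summed TPM of the 5 genes, in percent, with 1 bar per library (KO, knockout). The chs-5 segment takes between 45.5% and 60.5% of each bar, and the chs-3 segment is widest, at 19.2%, in replicate 2 of the double knockout.

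Ratios between members within a library need no scaling factor between libraries, and all 10 pairs were compared. For 8 pairs the strains overlapped. The log2 ratio of chs-1 to chs-4, per length, was -0.067, 0.14 and -0.22 in the double knockout, against 0.16, 0.42 and 0.22 in the single knockout. The log2 ratio of chs-1 to chs-3 was 0.51, -0.13 and 0.40 in the double knockout, against 0.63, 0.53 and 0.595 in the single knockout. Transcripts of chs-1 were thus lower relative to chs-3 and to chs-4 in every double-knockout library than in any single-knockout library, by a mean of -0.33 and -0.32. These 2 pairs share chs-1 and were picked out of 10, and the share of all gene pairs that separate the strains was not computed. For single genes, the CPM of the strains did not overlap for 42.3% of all genes tested. With 3 libraries against 3, a two-sided exact permutation test cannot go below p = 0.1. Neither difference could thus pass 0.05 in such a test, and no test was run on these ratios.

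**Figure D3:**
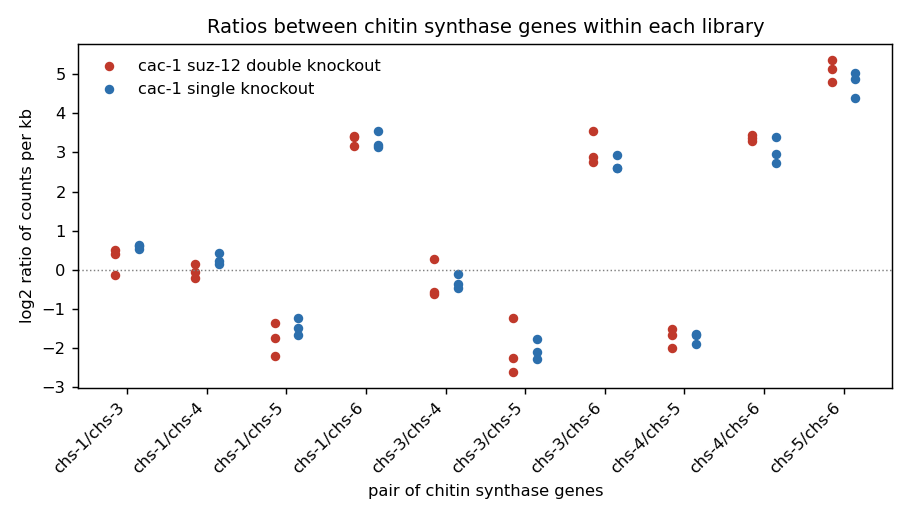
Log2 ratio of counts per kb for each of the 10 pairs of chitin synthase genes, with 1 point per library and the double knockout on the left of each pair. Only the ratios of chs-1 to chs-3 and of chs-1 to chs-4 separate the strains, while 8 pairs overlap.

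The 5 genes are dispersed over 3 linkage groups, all on the minus strand of the deposited coordinates, and none of their counted spans overlaps that of another gene. The member closest to a chromosome end was chs-6, at 421 kb, and the farthest was chs-4, at 4237 kb. Of the 10 genes flanking them, 1 was called higher and 1 lower, no larger a share than the 28.1% of all genes tested. The heat shock protein gene hsp88, 2188 bp from chs-6, had 143, 128 and 120 CPM in the double knockout and 89.4, 106 and 91.8 CPM in the single knockout, a log2 fold change of 0.45 (edgeR adjusted p = 0.0349). On library totals the adjusted p for hsp88 was 0.306 and on upper-quartile scaling 0.0689. Leaving out replicate 1 or 3 of the single knockout gave 0.134 and 0.105, and leaving out replicate 1 of the double knockout 0.152. NCU04249, 6898 bp from chs-3, had 11.1, 15.1 and 11.5 CPM in the double knockout and 22.02, 22.1 and 14.7 CPM in the single knockout, with overlapping ranges and a log2 fold change of -0.63 (edgeR adjusted p = 0.0266). That call was lost, with adjusted p from 0.0962 to 0.119, without replicate 1 or 2 of the single or replicate 1 or 3 of the double knockout. The gene beside chs-5 at lower coordinates, NCU11050, changed by -0.26 and that at higher coordinates, NCU04351, by 0.51 on the log2 scale, and neither was called.

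Genes with a pattern like that of chs-4, the member with the smallest p, were ranked by Pearson's r of log2 CPM over the 6 libraries among 7618 genes. NCU06969 (r = 0.994) and NCU04073 (r = 0.978) came first. NCU06969 had 57.2, 64.6 and 52.6 CPM in the double knockout and 47.1, 34.2 and 36.1 CPM in the single knockout. Unlike chs-4 it was called higher, with a log2 fold change of 0.58 (edgeR adjusted p = 0.0136), as r takes no account of the size of a change. NCU04073 had 34.7, 35.7 and 34.9 CPM in the double knockout, and 34.0, 29.0 and 30.1 CPM in the single knockout. Its log2 fold change was 0.18 (edgeR adjusted p = 0.395). These values of r are the highest out of many and describe the 6 libraries only.

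Among genes that act on chitin once it is made, chit-1, gh18-1, gh18-4, gh18-6 and gh18-7 rose in the double knockout. Family 18 glycoside hydrolases, the family that holds the fungal chitinases, and chit-1 made up 10 tested genes, of which 5 were called higher, 0 lower and 5 not called, against 16.1% of all tested genes called higher. With an unadjusted edgeR p under 0.05 there were 6 of 10, against 3607 of the 9148 genes tested. The gene added at that threshold was gh18-8, which was lower. The median log2 fold change of the 10 genes was 0.54, beside -0.000895 for all genes tested and 0.16 for the synthases. The summed level of the 10 genes was 329 to 532 CPM in the double knockout and 265 to 305 CPM in the single knockout. The largest part came from gh18-5, which was not called and whose strains overlapped. That gene had 161 to 377 CPM in the double and 151 to 189 CPM in the single knockout. The list was chosen with earlier results of these data known, and no test compared it with the synthases.

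The chitinase gene chit-1 had 12.1, 12.4 and 8.30 CPM in the double knockout, against 3.51, 5.23 and 4.45 CPM in the single knockout, a log2 fold change of 1.29 (edgeR adjusted p = 5.96e-04, SE 0.235). A rise of nearly the same size was found for gh18-6, at 25.97, 19.6 and 29.9 CPM in the double and 9.96, 10.7 and 10.8 CPM in the single knockout (log2 fold change 1.25, edgeR adjusted p = 8.51e-05, SE 0.187). Higher levels of gh18-7 were seen in every double-knockout library, at 78.6, 69.4 and 76.7 CPM, than in the single knockout, at 48.5, 43.2 and 44.7 CPM (log2 fold change 0.72, edgeR adjusted p = 0.00122). The strains did not overlap for these 3 genes, nor for gh18-1, gh18-4 and gh18-8. That is 6 of the 10 genes, against 42.3% of all genes tested.

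The other higher calls were gh18-1 and gh18-4. The low gene gh18-1 had 33, 27 and 15 counts in the double knockout and 0, 9 and 1 counts in the single knockout, and its log2 fold change of 2.71 (edgeR adjusted p = 0.00724, SE 0.686) became 4.81 without replicate 2 of the single knockout. The change of gh18-4 was 0.63 (edgeR adjusted p = 0.0236, SE 0.195), and the call was lost on library totals (adjusted p = 0.128), without replicate 2 of the single knockout (0.0999) and without replicate 2 or 3 of the double knockout (0.0738 and 0.0642). The gene gh18-8 changed by -0.48 (edgeR adjusted p = 0.0509), just outside the threshold. It was called lower with DESeq2, limma-voom, library totals, upper-quartile scaling, estimation that is not robust, the replicate block and without the 20 most abundant genes, with adjusted p from 0.0141 on library totals to 0.0486 with limma-voom. The most abundant of the family, gh18-5, had 161, 377 and 185 CPM in the double and 189, 186 and 151 CPM in the single knockout and was not called. The same library, replicate 2 of the double knockout, was thus the highest for gh18-5 and for chs-3. The changes of gh18-2, gh18-3 and gh18-9 were 0.24, 0.24 and -0.11, and none was called.

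**Figure D4:**
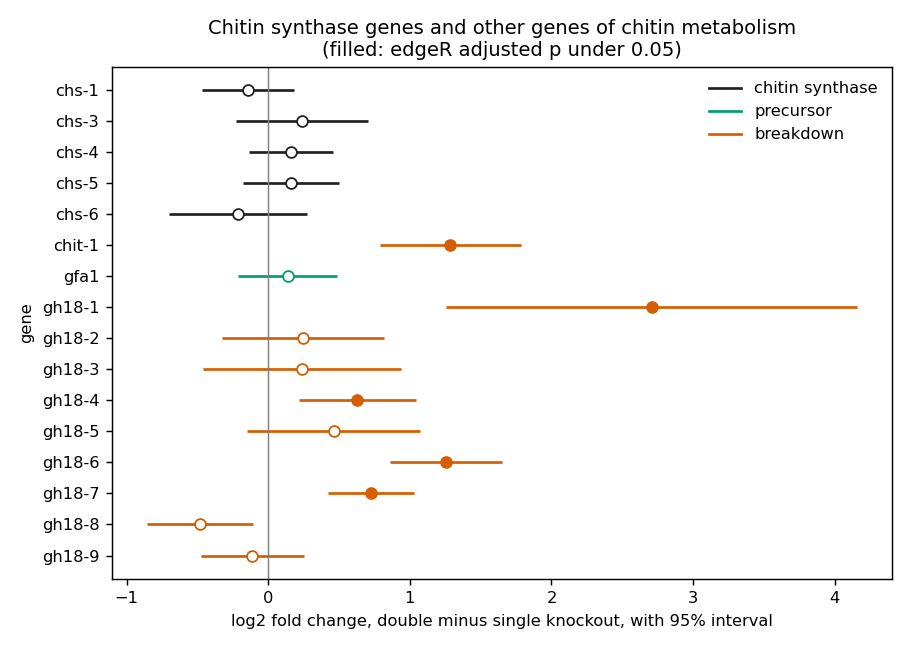
Log2 fold change, double minus single knockout, with its 95% interval, for the 5 chitin synthase genes, the precursor gene gfa1 and the 10 genes of chitin breakdown. Filled points passed an edgeR adjusted p of 0.05: they are chit-1, gh18-1, gh18-4, gh18-6 and gh18-7, all higher, and no synthase gene is among them.

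Genes of the chitin precursor were searched by name, which misses genes listed only by locus tag, and gfa1 alone was found. In budding yeast that name belongs to glutamine-fructose-6-phosphate aminotransferase, the entry enzyme to UDP-N-acetylglucosamine. The gfa1 gene had 502, 690 and 504 CPM in the double knockout and 523, 554 and 466 CPM in the single knockout. Its log2 fold change was 0.14 (edgeR adjusted p = 0.580, SE 0.166). Again replicate 2 was the highest library in each strain, and the ranges overlapped. Cell wall integrity signalling is the protein kinase C and MAP kinase route that responds to wall stress. Of its 8 genes 0 were called by edgeR, against 28.1% of all genes tested. With an unadjusted edgeR p under 0.05 there were also 0, against 3607 of the 9148 genes tested. The changes ran from -0.13 to 0.29. The MAP kinase gene mak-1 had 125, 141.3 and 133 CPM in the double and 114, 111 and 114 CPM in the single knockout, a log2 fold change of 0.23 (edgeR adjusted p = 0.239).

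Calls among other wall genes went in both directions. Of 17 genes for anchored (acw) and non-anchored (ncw) cell wall proteins, 2 rose, 4 fell and 11 were not called, close to the 28.1% called over all genes tested. The largest fall was that of ncw-4, with 438, 501 and 431 CPM in the double and 1087, 782 and 995 CPM in the single knockout (log2 fold change -1.06, edgeR adjusted p = 1.30e-04). The acw-10 gene rose by 0.81 (edgeR adjusted p = 8.61e-04) and acw-8 fell by 0.67 (edgeR adjusted p = 0.0107), each called also with any 1 library left out. Of the others, acw-3 changed by 0.68, acw-5 by -0.47 and ncw-1 by -0.62. Their calls were lost when some single libraries were left out, with adjusted p up to 0.0743, 0.0784 and 0.143. Glucanosyltransferases remodel the beta-glucan that is linked to chitin. Of their 4 genes 1 rose, 0 fell and 3 were not called, also close to the 28.1% called over all genes tested. The gene that rose was gel-4, by 0.82 (edgeR adjusted p = 0.0144). The strains overlapped for gel-4, and its call was lost without replicate 1 or 2 of the single or replicate 3 of the double knockout (adjusted p 0.0714, 0.0613 and 0.0715).

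Of 12 genes of septation and tip growth, the places where chitin synthases act, 2 rose, 2 fell and 8 were not called, again close to the 28.1% over all genes tested. The polarity scaffold gene spa2 had 43.0, 39.6 and 49.3 CPM in the double knockout, against 16.2, 14.5 and 19.8 CPM in the single knockout (log2 fold change 1.38, edgeR adjusted p = 1.15e-05, SE 0.171). The gene of the growth kinase COT-1, cot-1, fell to 63.2, 72.1 and 60.1 CPM in the double knockout, against 98.8, 91.8 and 93.3 CPM in the single knockout (log2 fold change -0.54, edgeR adjusted p = 0.0106, and 0.0534 without replicate 1 of the double knockout). The formin gene bni1 changed by 0.43 (edgeR adjusted p = 0.0445) and the myosin gene myo2 by -0.44 (edgeR adjusted p = 0.0373), and leaving out 1 library raised these adjusted p-values to as much as 0.207 and 0.139.

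**Figure D5:**
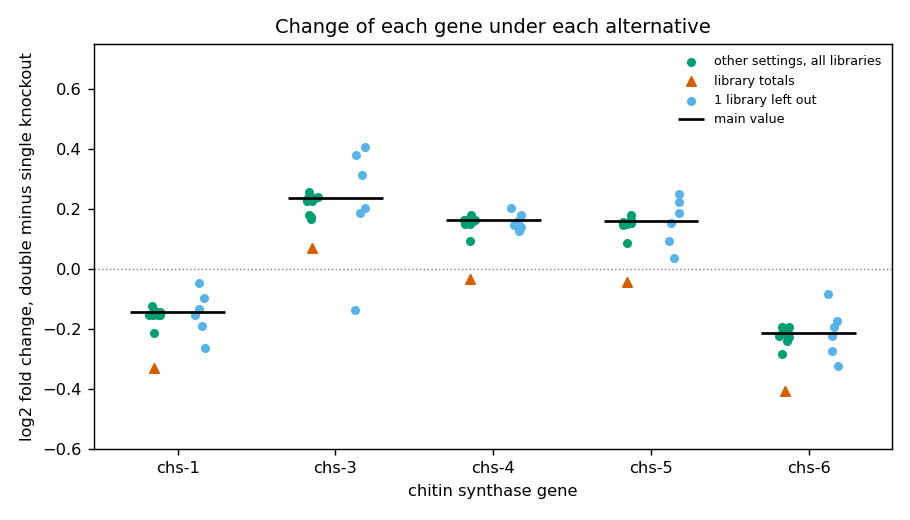
Log2 fold change, double minus single knockout, of each chitin synthase gene under each alternative. Black bars are the reported values, green points other settings with all libraries, triangles the scaling to library totals and blue points fits without 1 library. No point passed an adjusted p of 0.05, and the sign turned for chs-3 without replicate 2 of the double knockout, at -0.14, and for chs-4 and chs-5 on library totals, at -0.034 and -0.044.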

How the data were processed

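The authors deposited raw counts per gene in 1 table with 1 column per alignment file, per the file headers, so replicates were not pooled. The submitters' processing notes name Trim Galore 0.6.10, STAR 2.7.11, SAMtools 1.21, Subread 2.0.6, featureCounts and deepTools 3.5.5, and the genome build and strand setting are not given in the sources used here. Coordinates and the counted length in bp, another deposited column, are those of the table. As 98.8% of these lengths were multiples of 3, the length is read as coding length. Of values from 1 to 20 counts, 80.9% were even, so a count is not taken as 1 fragment, and intervals and limits are also given with 2 counts per fragment, an alternative chosen after seeing the data. RefSeq (NC12) was used only for locus tags and linkage groups and matched 9723 of 9757 genes. The table held 36 further count columns that match no sample label and were not used. Reads shared between similar genes were not examined, and no sequences were used.

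Genes were filtered with filterByExpr (9148 kept, 609 removed), scaled by TMM and tested with the quasi-likelihood method of edgeR 4.0.16 in R 4.3.3 with robust estimation, double minus single knockout. P-values were adjusted by Benjamini-Hochberg over all genes tested. CPM used totals times TMM factors. The common biological coefficient of variation was 0.174. The SE is the size of the log2 fold change over the square root of F. The method was tested on simulated data. Alternatives used DESeq2 1.42.0, limma-voom (limma 3.58.1), other scalings, filters and halved counts, a replicate block and fits without each library.

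Named genes were the members, their flanking genes and the 2 genes most like the member with the smallest p. Added to these were all genes found by name for the lists of chitin precursor and breakdown. From the other lists, up to 4 called genes per direction were named. Names were matched with hyphens ignored, pkc was taken for pkc-1, and gna-1 was dropped from the precursor list because that name belongs to a G-protein gene here. No row carried a name of the chitin synthase export list. The members and lists were chosen with earlier results of these data known.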

Additional observations from a re-analysis of the deposited data

How the results depend on the processing

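The count of chitin synthase genes called by edgeR was 0 in every alternative run, and so was the count at an unadjusted p under 0.05. Scaling to library totals moved the median of all genes to -0.20, and there chs-4 stood at -0.034 and chs-5 at -0.044, which follows that shift. Without 1 library at a time chs-3 ran from -0.14 to 0.41, its sign turning without replicate 2 of the double knockout. The member with the smallest adjusted p in any alternative was chs-1, at 0.190 on library totals.

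Among all genes, 1861 were lower and 1038 higher on library totals, against 1093 and 1476 with TMM. Lower calls numbered 650 to 1139 without 1 library, the low values coming without replicate 1 (650) or 3 (695) of the double knockout. At an adjusted p under 0.01 there were 1526 calls, 983 higher and 543 lower.

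In CPM with TMM per kb in place of TPM, the double-knockout levels were 19.6 for chs-1, 17.1 for chs-3, 20.2 for chs-4, 67.3 for chs-5 and 1.95 for chs-6, and the single-knockout levels were 21.7 for chs-1, 14.5 for chs-3, 18.1 for chs-4, 60.2 for chs-5 and 2.23 for chs-6. Shares of counts not divided by length were 9.75%, 8.36%, 13.4%, 67.5% and 0.945% for chs-1, chs-3, chs-4, chs-5 and chs-6 in the double and 11.8%, 7.72%, 13.1%, 66.2% and 1.18% in the single knockout, which follows from the length of chs-5.

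Of 555 values for the other 35 named genes, 491 kept their direction and call, 43 lost the call, 12 gained it and 9 changed sign. On library totals NCU09325 stood at -0.085, NCU04073 at -0.014 and gfa1 at -0.048. Without 1 library NCU03613 ran from -0.087 to 0.078, NCU09325 from -0.086 to 0.22, gfa1 from -0.033 to 0.22, gh18-3 from -0.097 to 0.39 and gh18-5 from -0.021 to 0.68. The cause of these reversals was not tested. Higher calls among the 10 chitin breakdown genes were 4 or 5 in every alternative, and lower calls 0 or 1. Only 9 of them were tested with at least 10 counts in every library and with counts halved, with 4 higher calls each.

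With the replicate block 0 chitin synthase genes were called, and chs-1 changed by -0.15. Over all genes the block gave 3009 calls, and it moved gh18-8, NCU03610 and NCU04351 past the threshold. Deviations of same-numbered libraries correlated at -0.015, 0.097 and 0.17. Replicates 2 and 3 of the double knockout correlated best with the same-numbered library of the single knockout. Replicate 1 of the double knockout correlated best with replicate 2 of the single knockout, at 0.11, and the numbers were not taken as pairs. Depth limits chs-6 most, with 42 counts in the shallowest library.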
